A study of Mus musculus with 20 samples.

Results

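Transcript levels of 9 genes of the BCL-2 family were examined in sorted CD4 T cells of the mouse. The genes were chosen by name, as those whose symbol in the array annotation was Bcl2, Bcl2l1, Mcl1, Bax, Bak1, Bcl2l11, Bbc3, Pmaip1 or Bid. They were read by 12 probes out of 39429 on the array, and 11 of these probes passed the filter on dim probes. All 9 genes had at least 1 tested probe, out of 17322 tested of 30342 annotated gene symbols. A gene with several tested probes is described by its brightest, with the other probe given where it differed.

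The BCL-2 family controls the mitochondrial route to apoptosis. Anti-apoptotic members (BCL-2, MCL-1 and BCL-XL) bind and restrain the effectors BAX and BAK, which otherwise permeabilise the outer mitochondrial membrane and release cytochrome c. BH3-only proteins (BIM, PUMA, NOXA and BID) are the sensors of the family, which neutralise the anti-apoptotic members or activate the effectors. In T cells, signals of the interleukin-7 and interleukin-2 receptors are known to maintain BCL-2 and MCL-1, and BIM is a main mediator of death after cytokine loss.

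The study compared T follicular regulatory (TFR) cells, which enter B cell follicles and restrain the germinal centre response, with naive T cells, regulatory T cells outside the follicle (Treg) and the T follicular helper cells (TFH) that drive that response. All mice were B6.Cg-Foxp3tm1Mal, a line in which green fluorescent protein (GFP) reports Foxp3, and were 8 to 14 weeks old. Each sample was sorted from a pool of 8 to 15 mice of both sexes. Peripheral lymph nodes (pLN) were taken 12 or 25 days (d12, d25) after subcutaneous immunisation with keyhole limpet haemocyanin in Alum. Peyer's patches (PP), the lymphoid follicles of the gut wall, were the second tissue, and their labels give no immunisation or day. All fractions were gated as CD4+ and B220-, which leaves out B cells. By flow cytometry naive cells were GFP- with low PD1 and without GL7, Treg cells were GFP+ with low PD1 and without GL7, TFH cells were GFP- with high PD1, and TFR cells were GFP+ with high PD1 irrespective of GL7, a carbohydrate epitope of activated follicular cells. The TFH cells of pLN were GL7+, and those of PP were sorted into GL7+ and GL7- cells. Naive cells of PP were not analysed here. The 12 groups comprised naive, TFH, Treg and TFR cells of pLN d12 (n = 2 each) and of pLN d25 (n = 1 each), and TFH GL7+, TFH GL7-, Treg and TFR cells of PP (n = 2 each). A sorted pool gives RNA per total RNA input, so a lower level in every cell cannot be told apart from fewer cells that carry the transcript. Replicates were separate samples with nothing further said of their origin, so p-values measure the spread between these samples, which may in part be technical.

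The 20 arrays lay on 5 slides of 4, and each slide held the 4 cell types of a single tissue, day and replicate. Replicate 1 of the d12 and PP groups (slides 1 and 4) was labelled from 50 ng of RNA and all other arrays from 40 ng. Replicates correlated at r = 0.955 to 0.986 over the tested probes, and 43.0% to 58.0% of probes were detected per array. Arrays of a slide deviated from their group means together, with correlations of 0.521 to 0.866. Foxp3, the defining factor of Treg cells, read 14718 to 35129 in Treg and 13409 to 29926 in TFR cells, against 27.0 to 94.8 in TFH and 123 to 192 in naive cells. Cxcr5, the follicle homing receptor, read 86197 to 169614 in TFH and 12125 to 88179 in TFR cells, against 3071 to 15156 in Treg and 803 to 1557 in naive cells. Foxp3 thus separated the GFP+ from the GFP- fractions, while for Cxcr5 the lowest TFR array overlapped the Treg arrays. All 10 transcripts of a B cell list were detected on each array of slide 4 (PP replicate 1), where their summed intensity ran from 23254 to 162088, against 6330 to 14495 on slide 5 (PP replicate 2) and 4331 to 21188 on the pLN slides. A list of 7 epithelial transcripts summed to 3525 to 8234 on slide 4, to 743 to 2264 on slide 5 and to 253 to 2055 in pLN. Other lists did not single out slide 4. The sums of 6 myeloid transcripts were highest on slide 5, at 23870 to 32700, against 18535 to 22234 on slide 4 and 9578 to 20886 in pLN. Those of 2 plasma cell transcripts reached 54490 on slide 4, 10046 on slide 5 and 54193 in pLN, the last in d12 TFH replicate 1 (9264 in replicate 2). The part of these cells in the PP results was not tested, and the sort gate was against B220, a marker of B cells. Members that passed in PP are therefore also given without slide 4 (an alternative chosen after seeing the data), where each PP group has 1 array that is assumed to vary like the others.

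The members themselves differed between slides. Bcl2 was higher in replicate 1 than in replicate 2 in 8 of 8 groups, by 0.30 to 1.06 on the log2 scale, and Bid in 8 of 8 groups, by 0.13 to 0.43. Bcl2l1, Bax and Bak1 were higher in replicate 1 in 0 of 8 groups, with log2 differences of -1.06 to -0.0094, -0.61 to -0.22 and -0.77 to -0.16. The remaining members differed in both directions. Each comparison within a tissue is therefore given from the model of group means alone, and with the slide as a block, which compares the 4 cell types of each slide among themselves. Slide, replicate and RNA input are tied and cannot be told apart.

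**Figure D1:**
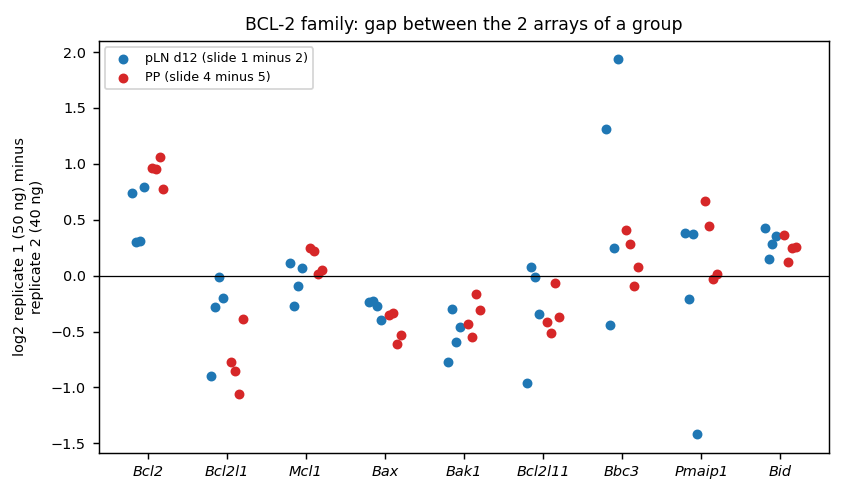
Difference on the log2 scale between replicate 1 (50 ng RNA) and replicate 2 (40 ng RNA) for each of the 9 genes, 1 point per group with 2 arrays (8 groups). All 8 points of Bcl2 and of Bid lie above 0, and all 8 of Bcl2l1, Bax and Bak1 lie below it.

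In pLN d12, TFH cells against naive cells and TFR cells against Treg cells had less Bcl2 and Mcl1 and more Pmaip1. Over the 12 groups, 6 of 9 members differed (limma F test, 33.6% of 22264 tested probes called): Pmaip1 (adjusted p = 8.71e-05), Mcl1 (0.0017), Bid (0.00239), Bcl2l11 (0.00551), Bcl2 (0.0167) and Bcl2l1 (0.0174). Bak1 (adjusted p = 0.203), Bbc3 (0.469) and Bax (0.853) did not pass. In the F test with the slide block, Bak1 (adjusted p = 0.0043) and Bax (0.0267) passed as well and Bbc3 (0.149) did not. The share of all probes called was not counted for that test. Between TFH and naive cells of pLN d12, 3 of 9 members passed, with 19.8% of all tested probes called. Pmaip1 was higher in TFH cells and Bcl2 and Mcl1 lower. In the model with the slide block 7 of 9 members passed, with 50.7% of probes called, as Bax, Bak1 and Bid (higher) and Bcl2l11 (lower) joined these. Between Treg and naive cells only Pmaip1 passed, higher in Treg cells, that is 1 of 9 where 4.21% of probes were called. With the block these were 4 of 9 (14.2% of probes), with Bcl2, Bcl2l1, Pmaip1 and Bid all higher in Treg cells.

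In the comparison of TFR with Treg cells in pLN d12, 3 of 9 members passed (11.6% of probes called), with Pmaip1 higher and Bcl2 and Mcl1 lower in TFR cells. The slide block gave 7 of 9 (41% of probes), adding Bcl2l1, Bak1 and Bid as higher and Bcl2l11 as lower. The same comparison in PP called 3 of 9 members (12.1% of probes), with Pmaip1 higher and Mcl1 and Bcl2l11 lower. There the block gave 5 of 9 (39.1% of probes), adding Bid as higher and Bcl2 as lower. Between TFH GL7+ and Treg cells of PP 3 of 9 passed (13.1% of probes), Mcl1, Bcl2l11 and Bid, each lower in TFH cells, and 5 of 9 with the block (40.3% of probes), with Bcl2 and Bcl2l1 lower as well. Comparisons within a tissue share groups, and so share arrays.

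Fewer members, and a smaller share of all probes, passed between TFR and TFH cells than between TFR and Treg cells. Bcl2l1 passed in pLN d12 (1 of 9 members, 6.03% of probes) and Bid in PP (1 of 9, 3.89% of probes), both higher in TFR cells. Under the block 3 of 9 passed in pLN (23% of probes), Bcl2l1, Pmaip1 and Bid, and 2 of 9 in PP (13.7% of probes), Bcl2l1 and Bid, each higher in TFR cells. The median log2 change of the 9 members was 0.37 for TFH minus naive, 0.60 for Treg minus naive, 0.15 and 0.06 for TFR minus Treg in pLN and PP, 0.30 and 0.21 for TFR minus TFH in pLN and PP, and -0.75 for PP TFH GL7+ minus Treg. The medians over all tested probes lay between -0.09 and 0.03 in these comparisons.

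**Figure D2:**
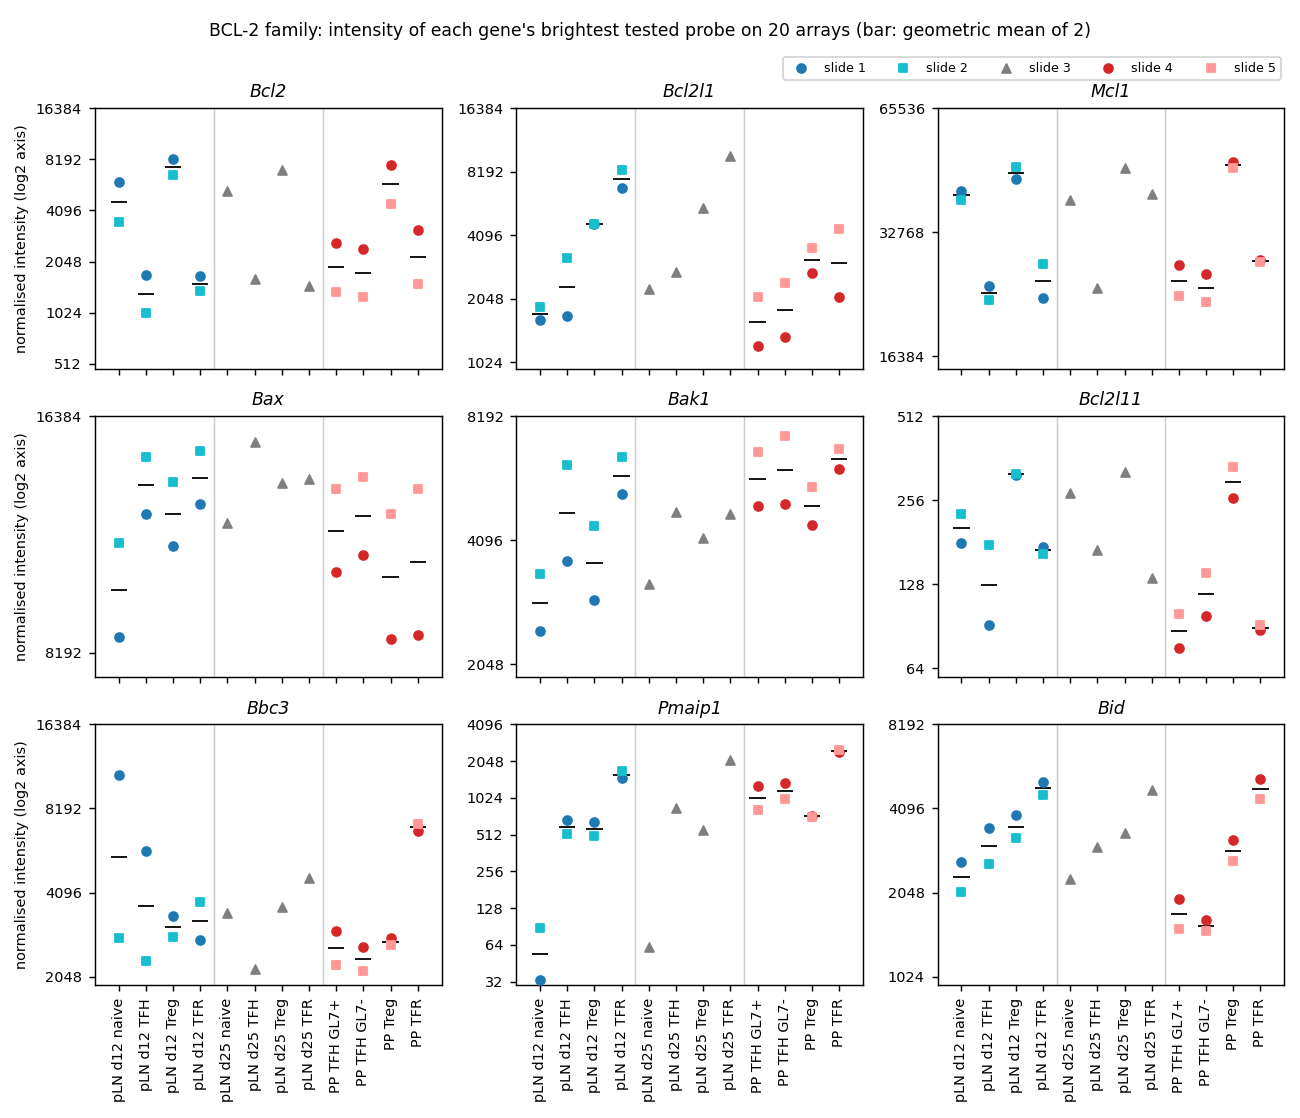
Normalised intensity of the 9 genes on a log axis, 1 point per array in each of the 12 groups, with shape and colour by slide and a bar for the geometric mean of groups with 2 arrays. Bcl2 and, except for TFR cells of d25, Mcl1 lie high in naive and Treg cells and lower in TFH and TFR cells. Bcl2l11 lies highest in Treg cells of each tissue and day. In pLN its naive cells lie between Treg cells and the TFH and TFR cells. Pmaip1 lies lowest in naive cells and highest in TFR cells.

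Bcl2, Mcl1 and Bcl2l11 are shown by the sequence before their annotated starts, because these were the members that were lower in TFH and in TFR cells than in Treg cells. The windows are the 250 bases before a start in RefSeq (GRCm38.p6), on the strand of the gene, 5′ to 3′. Bcl2l11 has 2 such windows, at separate starts. Capitals mark a match on either strand to the FOXO motif TGTTTAC, the STAT motif TTCNNNGAA or the NF-kB motif (GGG, then 2 of any base, then TTTCC), with N for any base.
Bcl2, chr1:106714291-106714540, minus strand: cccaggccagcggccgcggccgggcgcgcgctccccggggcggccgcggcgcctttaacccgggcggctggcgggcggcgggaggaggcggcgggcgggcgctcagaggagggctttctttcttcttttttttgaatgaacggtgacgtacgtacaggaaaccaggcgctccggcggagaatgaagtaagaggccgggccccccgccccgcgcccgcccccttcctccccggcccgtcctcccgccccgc
Mcl1, chr3:95658471-95658720, plus strand: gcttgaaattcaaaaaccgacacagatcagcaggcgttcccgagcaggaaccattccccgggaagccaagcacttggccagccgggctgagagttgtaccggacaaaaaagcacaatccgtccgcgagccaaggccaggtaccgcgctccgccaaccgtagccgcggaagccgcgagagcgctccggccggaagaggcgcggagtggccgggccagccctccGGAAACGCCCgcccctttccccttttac
Bcl2l11, chr2:128125788-128126037, plus strand: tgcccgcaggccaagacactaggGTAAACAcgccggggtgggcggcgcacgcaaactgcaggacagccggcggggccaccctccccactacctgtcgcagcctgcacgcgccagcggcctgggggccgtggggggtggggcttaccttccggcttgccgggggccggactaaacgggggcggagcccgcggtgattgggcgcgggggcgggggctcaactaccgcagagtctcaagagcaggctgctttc
Bcl2l11, chr2:128127325-128127574, plus strand: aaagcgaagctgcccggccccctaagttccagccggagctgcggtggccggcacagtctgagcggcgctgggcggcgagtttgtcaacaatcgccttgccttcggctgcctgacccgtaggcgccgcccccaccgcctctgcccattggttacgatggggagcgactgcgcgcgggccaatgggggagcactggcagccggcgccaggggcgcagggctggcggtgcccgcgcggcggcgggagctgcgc
The capitals in the Mcl1 window are an NF-kB match that begins 28 bases before the start, read on the opposite strand, and those in the first Bcl2l11 window a FOXO match that begins 227 bases before it, also on the opposite strand. The Bcl2 window and the second Bcl2l11 window held no match. The 4 windows were rich in G and C, at 74.8% for Bcl2, 64.4% for Mcl1 and 72.0% and 73.2% for Bcl2l11, against a median of 52.4% over all 32817 windows of the table. Of 13 windows for 8 members (Pmaip1 had none), 2 held the FOXO motif (3.16% of all windows did), 0 the STAT motif (7.01%) and 3 the NF-kB motif (1.41%). The other matches were FOXO in a window of Bbc3 (167 bases before the start) and NF-kB in windows of Bbc3 (136 bases) and Bcl2l1 (218 bases). A match is a description of the letters and not a site of binding.

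Bcl2 encodes the anti-apoptotic protein that gave the family its name. Its probe (A_51_P380013, mm9 chr1:108608970-108609029, minus strand) was designed on a single RefSeq transcript. In pLN d12 it read 6050.3 and 3498 in naive cells (replicates 1 and 2 here and below), 1709 and 1022 in TFH, 8217 and 6635 in Treg and 1686 and 1368 in TFR cells. In pLN d25 it read 5336 in naive, 1610.5 in TFH, 7066 in Treg and 1468 in TFR cells. In PP it read 2638 and 1352 in TFH GL7+, 2436 and 1258 in TFH GL7-, 7611 and 4454 in Treg and 3152 and 1515 in TFR cells. Every naive and Treg array read above every TFH and TFR array. Neighbours in the order of group means overlapped throughout d12 and PP, except between naive cells and the next group below, PP TFR cells.

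Bcl2 was 4.86-fold lower in TFR than in Treg cells of pLN d12 (log2 change -2.28 ± 0.51 SE, n = 2 and 2, limma adjusted p = 0.0163, and 8.82e-05 with the slide block). It was 3.48-fold lower in TFH than in naive cells (-1.80 ± 0.51, adjusted p = 0.031, 3.06e-05 with the block). In PP the log2 change of TFR minus Treg was -1.41 ± 0.51 (adjusted p = 0.113) and that of TFH GL7+ minus Treg -1.62 ± 0.51 (0.0654). Both passed with the slide block (0.000196 and 8.23e-05). Within slides, which removes the gap between replicates, TFR cells lay below Treg cells on 5 of 5 slides, by log2 values of -2.28 to -1.27. Treg minus naive was 0.68 ± 0.51 (adjusted p = 0.921), and passed with the block alone (0.0161, in 14 of 16 fits that left out an array, up to 0.123). TFR and TFH cells did not differ beyond the spread in pLN (0.20 ± 0.51, adjusted p = 0.995) or in PP (0.21 ± 0.51, 1.00).

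The calls for Bcl2 without the block depended on single arrays. The one for TFR minus Treg of pLN was lost without any 1 of the 4 arrays compared, and that for TFH minus naive without naive replicate 1, TFH replicate 1 or TFH replicate 2, with adjusted p-values up to 0.101 and 0.224. With the block all 4 calls between follicular cells and naive or Treg cells held in 16 of 16 fits that left out an array. Without slide 4, which carried the B cell transcripts, the blocked p-values in PP were 0.0272 for TFR minus Treg and 0.0194 for TFH GL7+ minus Treg.

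**Figure D3:**
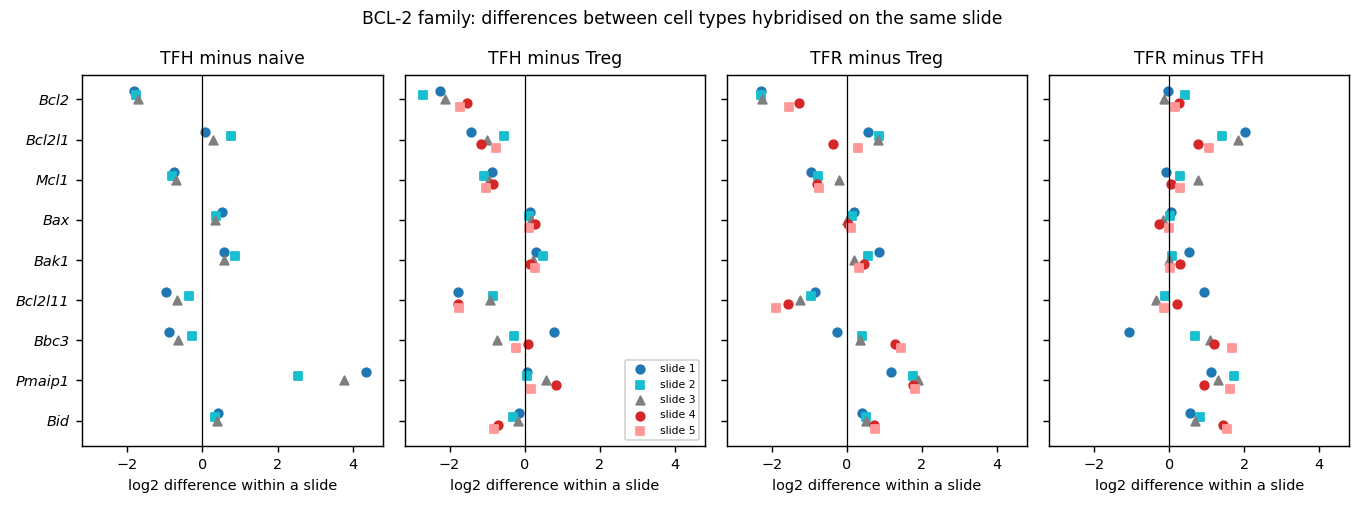
Difference on the log2 scale within each slide, 1 point per slide, for each of the 9 genes and 4 pairs of cell types (naive cells lie on 3 slides, the others on 5). For TFR minus Treg, Bcl2, Mcl1 and Bcl2l11 lie below 0 and Pmaip1 and Bid above 0 on all 5 slides.

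Mcl1 encodes a short-lived anti-apoptotic protein on which T cell survival depends. Its brighter probe (A_51_P238786, mm9 chr3:95466855-95466914, plus strand) read 41328 and 39312 in naive, 24271 and 22380.3 in TFH, 44073 and 47133 in Treg and 22692 and 27439.8 in TFR cells of pLN d12. In pLN d25 it read 39142 in naive, 24017 in TFH, 46818 in Treg and 40634 in TFR cells. The PP arrays read 27193 and 22959.6 in TFH GL7+, 25919.6 and 22221 in TFH GL7-, 48458 and 46863 in Treg and 28069 and 27787 in TFR cells. The Treg and naive arrays lay above all TFH arrays and above the TFR arrays of d12 and PP. The TFR array of d25 was the exception, at a level between d25 TFH and Treg cells and close to naive cells.

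Mcl1 was 1.83-fold lower in TFR than in Treg cells of pLN (-0.87 ± 0.16 SE, limma adjusted p = 0.00618) and 1.71-fold lower in PP (-0.77 ± 0.16, 0.0106). TFH cells were 1.73-fold lower than naive cells in pLN (-0.79 ± 0.16, 0.0055) and 1.91-fold lower than Treg cells in PP (-0.93 ± 0.16, 0.00327). The second Mcl1 probe (A_52_P93933, mm9 chr3:95465543-95465602) passed in the same direction in each of these 4 comparisons, with log2 changes of -0.68, -1.10, -0.68 and -1.46. Within slides the change of TFR minus Treg was below 0 on 5 of 5 slides but ran from -0.96 to -0.20, the smallest on the d25 slide. With the block all 4 calls held in 16 of 16 fits that left out an array. Without it, TFR minus Treg was lost in pLN without TFR replicate 1 or Treg replicate 2 (adjusted p up to 0.0664), and in PP without Treg replicate 1, Treg replicate 2 or TFR replicate 2 (up to 0.0548). Without slide 4 the blocked adjusted p was 0.0578 for TFR minus Treg and 0.0281 for TFH GL7+ minus Treg of PP.

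Bcl2l1 encodes BCL-XL, and had a different pattern from the other anti-apoptotic members. Its brighter probe (A_55_P1974877, mm9 chr2:152606404-152606463, minus strand) read 1623 and 1867 in naive, 1706 and 3182 in TFH, 4613 and 4643 in Treg and 6863 and 8361 in TFR cells of pLN d12. In pLN d25 it read 2275 in naive, 2752 in TFH, 5529 in Treg and 9759 in TFR cells. Those of PP read 1224 and 2091 in TFH GL7+, 1349 and 2443 in TFH GL7-, 2730.0 and 3579 in Treg and 2095 and 4376 in TFR cells. The pLN TFR arrays were the highest of all and did not overlap pLN Treg cells, which came next. In PP the TFR arrays overlapped the Treg and TFH GL7- arrays and lay just above the TFH GL7+ arrays.

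In pLN d12 Bcl2l1 was 3.25-fold higher in TFR than in TFH cells (1.70 ± 0.44 SE, limma adjusted p = 0.0492, 0.00111 with the slide block). This call without the block rested close to the threshold, and held in 3 of 16 fits that left out an array. The second probe (A_52_P510877, mm9 chr2:152655185-152655244) gave 2.04 ± 0.29 (adjusted p = 0.00245). The brighter probe was above TFH cells in TFR cells on 5 of 5 slides, by 0.78 to 2.01. Treg minus naive was 1.41 ± 0.44 (adjusted p = 0.142, 0.00375 with the block) and passed by the second probe in both models (1.89 ± 0.29, 0.00439 and 0.00177). TFR minus Treg of pLN was 0.71 ± 0.44 (0.399), and 0.03 with the block, which held in 13 of 16 fits that left out an array (up to 0.229). In PP TFR minus TFH GL7+ was 0.92 ± 0.44 (0.485, and 0.0261 with the block), TFH GL7+ minus Treg was -0.97 ± 0.44 (0.212, and 0.00827 with the block), and TFR minus Treg was -0.05 ± 0.44 (0.983, and 0.888 with the block). The blocked calls of PP held in 12 and 13 of 16 such fits, and without slide 4 the blocked adjusted p was 0.205 for TFR minus TFH GL7+ and 0.183 for TFH GL7+ minus Treg.

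Bax, the effector that moves from the cytosol to mitochondria (A_55_P2137406, mm9 chr7:52717122-52717181, minus strand), read 8584 and 11279.7 in naive, 12313 and 14547 in TFH, 11189.9 and 13505 in Treg and 12659 and 14783 in TFR cells of pLN d12. The 4 arrays of d25 read 11986 to 15177, and the 8 arrays of PP 8528 to 13696. All neighbouring groups overlapped. No comparison passed without the block, and with it TFH minus naive did, at 0.44 ± 0.10 SE (limma adjusted p = 0.00544), a call lost without naive replicate 1 (0.0537). Within slides the change of TFR minus Treg lay between 0.01 and 0.18.

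Bak1, the effector resident in the outer mitochondrial membrane (A_55_P2013113, mm9 chr17:27156807-27156866, minus strand), read 2468 and 3389.8 in naive, 3644 and 6223 in TFH, 2933 and 4428 in Treg and 5291 and 6507 in TFR cells of pLN d12. On d25 it read 3209 in naive, 4793 in TFH, 4147 in Treg and 4754 in TFR cells, and in PP the 8 arrays read 4467 to 7349. Naive cells were lowest and TFR cells of PP highest in mean, with each group overlapping the next. Blocked by slide, Bak1 was higher in TFH than in naive cells (0.72 ± 0.13 SE, limma adjusted p = 0.00229) and in TFR than in Treg cells of pLN (0.70 ± 0.13, 0.0039), and both calls held in 16 of 16 fits that left out an array. Without the block neither passed (0.173 and 0.235).

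Among the BH3-only genes, Bcl2l11 was, like Bcl2, highest in Treg cells. It encodes BIM, which binds all the anti-apoptotic members. Its tested probe (A_51_P484880) aligns to mm9 chr2:127972893-127983988, plus strand, over a span of 11096 bases, so that its alignment has a gap. In pLN d12 it read 181 and 229 in naive, 91.4 and 177 in TFH, 315 and 318 in Treg and 174 and 165 in TFR cells. In pLN d25 it read 272 in naive, 170.3 in TFH, 323 in Treg and 134 in TFR cells. PP values were 75.5 and 100.5 in TFH GL7+, 98.7 and 141 in TFH GL7-, 261 and 338 in Treg and 87.6 and 91.9 in TFR cells. Within each tissue and day the Treg arrays were above all others, and the signals were low but detected on all 20 arrays. The second probe of the gene was detected on 7 arrays and not tested.

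In PP Bcl2l11 was 3.31-fold lower in TFR than in Treg cells (-1.73 ± 0.31 SE, limma adjusted p = 0.00479) and 3.41-fold lower in TFH GL7+ than in Treg cells (-1.77 ± 0.31, 0.00358). Both calls held in 16 of 16 fits that left out an array, with and without the block. Without slide 4 the blocked adjusted p-values were 0.0505 and 0.0532. In pLN TFR minus Treg was -0.90 ± 0.31 (0.094, and 0.0144 with the block) and TFH minus naive -0.67 ± 0.31 (0.175, and 0.0369 with the block). These blocked calls held in 14 and 7 of 16 fits that left out an array, with adjusted p-values up to 0.119 and 0.319. TFR cells lay below Treg cells on 5 of 5 slides.

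Pmaip1 encodes NOXA, a BH3-only protein that binds MCL-1 by preference. Its probe (A_51_P477121) was not well above background on the 3 naive arrays, where it read 33.1, 88.5 and, on d25, 61.5. In pLN d12 it read 678 and 521 in TFH, 651 and 502 in Treg and 1478 and 1708 in TFR cells, and on d25 842, 563 and 2077 in these cells. In PP it read 1285 and 809 in TFH GL7+, 1359 and 1000.0 in TFH GL7-, 724 and 718 in Treg and 2452 and 2507 in TFR cells. TFR cells had the highest level on each of the 5 slides, and no TFR array overlapped another cell type of its tissue.

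Against naive cells of pLN d12, where only a bound exists, Pmaip1 was at least 9.65-fold higher in TFH cells (limma adjusted p = 0.000191) and at least 9.29-fold higher in Treg cells (0.000857). The bound was set by the dimmest detected probe of each naive array. Such bounds, here and below, are approximate, since undetected probes can read higher. On naive replicate 1 that dimmest probe read 41.1, and the undetected second Bcl2l11 probe 58.6. TFR cells exceeded Treg cells 2.78-fold in pLN (1.48 ± 0.40 SE, 0.0409) and 3.44-fold in PP (1.78 ± 0.40, 0.0168). Within slides this difference was 1.18 to 1.88 on 5 of 5 slides. TFR cells read 2.67 times the level of TFH cells in pLN (0.0757, and 0.0355 with the block) and 2.43 times in PP (0.154, and 0.0703 with the block, 0.329 when slide 4 was also left out). The blocked call for pLN held in 5 of 16 fits that left out an array (up to 0.177). The calls for TFR minus Treg were less firm than those against naive cells. In pLN it held in 4 of 16 fits that left out an array (adjusted p up to 0.222), and in PP it was lost without any 1 of the 4 Treg and TFR arrays (up to 0.0869). Without slide 4 the blocked adjusted p in PP was 0.162.

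Bid encodes a BH3-only protein that is cleaved by caspase-8 and so joins the death receptor route to mitochondria. Its probe (A_52_P574653, mm9 chr6:120843464-120843523, minus strand) read 2624 and 2054 in naive, 3478 and 2586 in TFH, 3890.1 and 3198 in Treg and 5093 and 4586 in TFR cells of pLN d12. In pLN d25 it read 2286 in naive, 2977 in TFH, 3354 in Treg and 4767 in TFR cells. In PP it read 1947 and 1513 in TFH GL7+, 1627 and 1491 in TFH GL7-, 3163 and 2650.0 in Treg and 5232 and 4410.0 in TFR cells. TFR cells were the highest on each slide and at like levels in both tissues, while TFH cells lay above naive cells in pLN and were the lowest in PP.

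In PP Bid was 2.80-fold higher in TFR than in TFH GL7+ cells (1.48 ± 0.22 SE, limma adjusted p = 0.00376), which held in 16 of 16 fits that left out an array, and 1.69-fold lower in TFH GL7+ than in Treg cells (-0.75 ± 0.22, 0.0497), which held in 2 of 16. TFR minus Treg of PP was 0.73 ± 0.22 (0.0599), TFR minus TFH of pLN 0.69 ± 0.22 (0.118) and TFR minus Treg of pLN 0.45 ± 0.22 (0.259). With the slide block all of these passed, with adjusted p-values of 0.000665, 0.00166 and 0.00635. Without slide 4, the 3 blocked comparisons of PP had adjusted p-values of 0.0154 to 0.0361. Within slides TFR cells lay above Treg cells by 0.39 to 0.74 and above TFH cells by 0.55 to 1.54, on 5 of 5 slides each.

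Bbc3 encodes PUMA, the BH3-only protein best known as a p53 target. Its probe (A_51_P248122, mm9 chr7:16903403-16903462, plus strand) read 10765 and 2817 in naive, 5790.2 and 2336 in TFH, 3365 and 2840.0 in Treg and 2778 and 3774 in TFR cells of pLN d12. On d25 it read 3447 in naive, 2179.5 in TFH, 3650.3 in Treg and 4636 in TFR cells. In PP it read 2994 and 2262 in TFH GL7+, 2617 and 2146 in TFH GL7-, 2807 and 2656 in Treg and 6789 and 7230.3 in TFR cells. The 2 naive arrays of d12 lay far apart, and with them the spread that the model assigns to every group. The PP TFR arrays were close to each other and above all other PP arrays, yet TFR minus Treg of PP did not pass (1.36 ± 0.56 SE, limma adjusted p = 0.169, and 0.0503 with the slide block), nor did TFR minus TFH GL7+ (1.43 ± 0.56, 0.305, and 0.0847 with the block). With the slide as a random block TFR minus Treg of PP had an adjusted p of 0.0299, while with the fixed block and without slide 4 it was 0.322, and that of TFR minus TFH GL7+ 0.415.

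**Figure D4:**
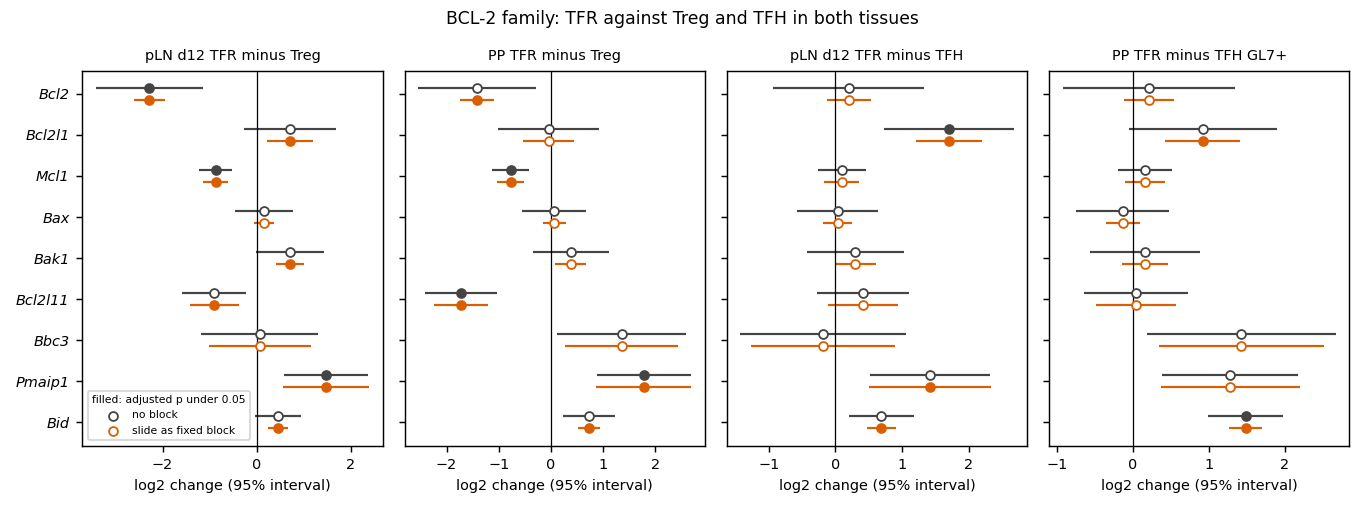
Log2 change of the 9 genes for TFR minus Treg and TFR minus TFH cells in pLN d12 and PP, from the models without a block and with the slide as a block, with 95% intervals as bars and filled points for calls at an adjusted p under 0.05. For TFR minus Treg, Bcl2 and Mcl1 lie below 0 and Pmaip1 and Bid above 0 in both tissues.

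Tissues and days were compared next. Between PP and pLN d12, 0 of 9 members passed for Treg cells (2.57% of probes called), 0 of 9 for TFH GL7+ cells (5.97%) and 0 of 9 for TFR cells (16.2%) by limma. At an unadjusted p under 0.05 these counts were 0, 1 and 2. The closest were Bid in TFH cells (-0.81 ± 0.22 SE, adjusted p = 0.0632), and Bcl2l1 (-1.32 ± 0.44, 0.0661) and Bcl2l11 (-0.92 ± 0.31, 0.0703) in TFR cells, each lower in PP. Tissue and slide cannot be told apart here, nor can tissue and the immunisation and day that only the pLN labels give. The difference between tissues in TFR minus Treg passed for 0 of 9 members (0.548% of probes), and that in TFR minus TFH also for 0 of 9 (0.611%), with 0 and 1 at an unadjusted p under 0.05. With the slide block 1 of 9 passed in each (8.42% and 3.83% of probes). These were Bcl2, whose deficit in TFR against Treg cells was smaller in PP (0.87 ± 0.20, 0.0378), and Bid, whose excess in TFR over TFH cells was larger in PP (0.80 ± 0.13, 0.0194). They held in 5 and 10 of 16 fits that left out an array, and neither passed without slide 4.

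Between d25 and d12 of pLN, averaged over the 4 cell types, 0 of 9 members passed by limma (0.0539% of probes, and 0 at an unadjusted p under 0.05), with changes of -0.17 to 0.31 on the log2 scale. The slide of d25 held no other group, and day cannot be told apart from slide. Between TFH GL7+ and TFH GL7- cells of PP 0 of 9 passed with or without the block (0.00898% and 0.018% of probes, and 0 at an unadjusted p under 0.05 without it), with changes of -0.44 for Bcl2l11 to 0.14 for Bid and Bbc3. The methods' t-test also called 0.

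The other genes of the pathway were counted from fixed lists, in the model without a block unless the block is named. Their counts stand against the shares of all tested probes given above. Without the block these were 19.8% for TFH minus naive, and 11.6% and 12.1% for TFR minus Treg in pLN and PP. They were 13.1% for PP TFH GL7+ minus Treg, and 6.03% and 3.89% for TFR minus TFH in pLN and PP. With the block the shares were 50.7%, 41%, 39.1%, 40.3%, 23% and 13.7% in the same order. Of 6 other anti-apoptotic genes, 3 were tested. Bcl2a1c and Bcl2a1d, near-identical copies whose probes may read each other, were higher in TFH than in naive cells (3.57 and 3.43 on the log2 scale), and higher in TFR than in Treg cells of pLN (1.58 and 1.51) and of PP (1.93 and 1.91). Bcl2l2 (BCL-W) was at least 2.86-fold higher in TFH than in naive cells, where it was not well above background, and 1.15 higher on the log2 scale in TFR than in Treg cells of pLN. Of these genes 3 of 3 passed as higher in TFH cells against naive and in pLN TFR cells against Treg, and 2 of 3 in PP TFR against Treg and PP TFH GL7+ against Treg (3 of 3 in each with the block), with 0 lower. Their median log2 changes were 3.43, 1.51, 1.91 and 1.72.

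Of 5 other BH3-only and effector genes, 3 were tested. Bmf and Bad were higher in TFH than in naive cells (0.91 and 0.83), Bmf in TFR than in Treg cells of PP (1.69), and Bmf and Bik in TFH GL7+ than in Treg cells of PP (1.10 and 1.19), with 0 of 3 lower in any of these. With the block 3, 2 and 3 of 3 were higher in these comparisons, and Bmf was lower in TFR than in TFH cells of pLN. Apaf1, the scaffold of the apoptosome, was higher in TFH than in naive cells (1.00). Of 5 IAP proteins and antagonists 1 passed in the comparisons within a tissue, Htra2, higher in TFR than in Treg cells of pLN (1.00). With the block this comparison had 1 higher and 3 lower, Birc3 (-0.60), Birc2 (-0.59) and Diablo (-0.27), and Birc3 and Birc2 were also lower in TFH GL7+ than in Treg cells of PP (-0.90 and -0.57). Of 6 other BCL-2-like genes, Bcl2l14 was higher in TFR than in TFH cells of pLN (1.14) and PP (1.56), and Bcl2l13 also passed in PP (0.619 without slide 4). Both also passed in TFH GL7+ minus Treg of PP with all arrays. The calls of Bcl2l14 and Bcl2l13 in PP did not hold without slide 4. There the changes of TFH GL7+ minus Treg were -0.743 for Bcl2l14 and -0.694 for Bcl2l13. Bcl2l15 was not well above background in naive cells of pLN d12. It was at least 6-fold higher in TFH cells (limma adjusted p = 0.00201) and at least 4.32-fold higher in Treg cells (0.0146).

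In the death receptor list of 9 genes, 2 were higher and 0 lower in TFH than in naive cells, Fas (0.70) and Tradd (0.53). Between TFR and Treg cells 0 were higher and 2 lower in each tissue, Casp8, the protease that cleaves BID (-0.95 in pLN and -0.76 in PP), with Fas (-0.59) in pLN and Fasl (-2.60) in PP. In TFH GL7+ against Treg cells of PP 1 was higher, Tradd (0.50), and 2 lower, Casp8 (-0.74) and Tnfrsf10b (-0.85). Tnfrsf10b, the TRAIL receptor, was higher in TFR than in TFH cells (1.41 in pLN and 0.88 in PP). With the block 2 were higher and 4 lower in TFH minus naive, and 2 higher and 5 lower in pLN and 1 higher and 4 lower in PP in TFR minus Treg. Of 9 genes of the p53 list, 3 were higher in TFH than in naive cells (7 with the block), among them Cdkn1a (at least 9.12-fold) and Perp (at least 5.61-fold), and 0 lower. Perp was the 1 of 9 that was higher in TFR than in Treg cells, at least 4.54-fold in pLN and by 1.85 on the log2 scale in PP, a count near the share of all probes (3 and 2 of 9 with the block).

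Of 7 cytokine receptors of survival signals, 2 were higher and 3 lower in TFH than in naive cells, with Il7r, the interleukin-7 receptor, at -4.35 and Il4ra at -3.65. Between TFR and Treg cells 0 were higher and 2 lower in pLN, Il4ra (-1.83) and Il2rg (-0.58), and 3 lower in PP, Il2ra (-2.96), Il7r (-2.20) and Il4ra (-2.19). The block gave the same counts but for 3 lower in pLN. TFR cells exceeded TFH cells in Il2ra, the high-affinity chain of the interleukin-2 receptor, by 4.40 in pLN and 4.56 in PP. Of 11 tested regulators of the members, 4 were higher and 1 lower in TFH than in naive cells (4 and 4 with the block), and in TFR against Treg cells 3 were higher and 1 lower in pLN (the same counts with the block) and 2 higher and 0 lower in PP (3 and 2). Bcl6 was higher in TFH than in naive cells (3.33) and in TFR than in Treg cells of pLN (1.28) and PP (3.19). Foxo1, a factor known to act on Bcl2l11, Bbc3 and Il7r, was lower in TFH than in naive cells (-1.76) and in TFR than in Treg cells of pLN (-0.81).

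On slide 4, PP TFR and Treg replicate 1 held the most B cell transcript (162088 and 106649), and its part in these PP values was not tested. With the slide block and without slide 4, also chosen after seeing the data, TFR minus Treg of PP passed for Bcl2a1c (limma adjusted p = 0.0397), Bcl2a1d (0.0391), Bmf (0.0167), Casp8 (0.0184), Perp (0.0111), Il2ra (0.0272), Il4ra (0.0154) and Bcl6 (0.0173), and not for Fasl (0.0631) or Il7r (0.0878). For TFH GL7+ minus Treg, Bmf (0.0255), Tradd (0.048), Casp8 (0.0188) and Tnfrsf10b (0.0395) passed and Bik (0.134), Bcl2a1c (0.0538) and Bcl2a1d (0.0502) did not. For TFR minus TFH GL7+, Il2ra (0.0132) passed and Bcl2l14 (0.0709) and Tnfrsf10b (0.0704) did not.

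By the correlation of means over the 12 groups, the genes most like each member were Sorcs2 (r = 0.986) for Bcl2, Rad52 (0.978) for Mcl1, Ncf4 (0.972) for Bcl2l1, Wnt10a (0.947) for Bax, Col1a1 (0.969) for Bak1, Ms4a4c (0.969) for Bcl2l11, Thap4 (0.991) for Pmaip1, Vill (0.947) for Bid and Adam6b (0.89) for Bbc3. The groups share slides, and the best match out of all tested genes is high by selection, so these values are a description.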

How the data were processed

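RNA of 20 sorted samples was hybridised to single-colour Agilent arrays on which each probe is printed 4 times. The deposited scanner files (Agilent Feature Extraction 10.7.3.1) hold, per printed feature, the background-subtracted intensity, the raw mean signal and local background signal, and other columns of quality marks. The authors' deposited series matrix holds linear intensity, for which the authors averaged the features of a probe, quantile normalised the arrays, scaled the 75th percentile to 1500 and set a floor of 20. Probe positions are those of mm9 in the deposited annotation.

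Here these values were rebuilt from the scanner files in the same way, as geometric means over features left after outlier removal (1.42 times the interquartile range, pixel variation above 0.5). They differed from the deposited intensities by a median of 0.0347 to 0.0362 per array on the log2 scale. Depth is the signal above background, and detection of a probe required 3 or more of 4 features marked well above background. The 22264 probes detected on each array of at least 1 of the 8 groups with 2 arrays were tested. Log2 values were fitted with limma 3.58.1 in R 4.3.3 as 12 group means over all 20 arrays (8 residual degrees of freedom), with Benjamini-Hochberg adjustment over all tested probes and calls at an adjusted p under 0.05. The main model has no block, after the one-way design of the study's methods. A second has the slide as a fixed block (6 residual degrees of freedom). Models were tested on simulated data without a slide effect, which cannot show how they behave where arrays of a slide deviate together.

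All 9 members are described, each by its brightest tested probe, and other genes come from lists, of which up to 3 passing genes per list and comparison were named. The members and lists were chosen with earlier results of these data known. Alternatives were the deposited matrix, normexp background correction, scaling without quantile normalisation, no filter, slide as a block, a fold minimum, only the compared groups, without slide 4, each replicate left out, and the mean of a gene's probes. The number of arrays limits the precision. Promoter windows came from RefSeq (GRCm38.p6) and probe positions were not converted to that build. Some genes of the pathway lists are not reported here. No per-sample column was left unused for lack of a sample.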

Additional observations from a re-analysis of the deposited data

How the results depend on the processing

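The number of the 9 members called was the quantity followed. It stayed within 1.5 times its value with the authors' deposited matrix in every comparison. With normexp it rose from 1 to 2 in TFR minus TFH of pLN and of PP. With scaling to the 75th percentile alone it rose from 0 to 2 for PP minus pLN in TFR cells. With no filter it was 0 in TFR minus TFH of pLN, and with a log2 change of at least 1 required it was 1 in PP TFH GL7+ minus Treg. With the mean of a gene's probes it was 2 in Treg minus naive and 1 for PP minus pLN in TFR cells.

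The slide as a fixed block gave 7 (TFH minus naive), 4 (Treg minus naive), 7 (pLN TFR minus Treg), 3 (pLN TFR minus TFH), 5 (PP TFR minus Treg), 2 (PP TFR minus TFH GL7+), 5 (PP TFH GL7+ minus Treg) and 1 in each difference between tissues, and as a random block (correlation 0.742) 7, 4, 7, 3, 6, 3 and 5 in the same order and 1 for the difference between tissues in TFR minus TFH. A block for slide cannot be fitted for PP minus pLN and d25 minus d12. With only the compared groups in the fit, the counts in this order were 0, 0, 1, 0, 0, 0 and 0, in fits of 4 arrays. Without slide 4 they were 0 for pLN TFR minus TFH, PP TFR minus Treg and PP TFR minus TFH GL7+, and 1 for PP TFH GL7+ minus Treg.

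Leaving out each replicate gave 2 to 4 members for TFH minus naive, 1 for Treg minus naive, 0 to 3 and 0 to 1 for pLN TFR minus Treg and minus TFH, 1 to 4 and 1 to 2 for PP TFR minus Treg and minus TFH GL7+, 2 to 3 for PP TFH GL7+ minus Treg, 0 to 1 for PP minus pLN in TFR cells, 5 to 6 in the F test and 0 elsewhere. The following were chosen after seeing the data. With the slide block and without slide 4, each PP group has 1 array, and PP counts are not given. Fewer members passed there than with all slides, in each PP comparison with calls and in both differences between tissues. The counts of that fit included 4 for pLN TFR minus Treg (27.8% of probes called). With the slide block and each replicate left out, they were 5 to 7 (TFH minus naive), 3 to 5 (Treg minus naive), 3 to 7 and 2 to 3 (pLN TFR minus Treg and minus TFH), 4 to 7 and 1 to 4 (PP TFR minus Treg and minus TFH GL7+), 4 to 5 (PP TFH GL7+ minus Treg), 0 (GL7) and 0 to 2 (each difference between tissues). No change of direction occurred in a called comparison under these settings, and apart from the fewer arrays in some fits the cause of each shift was not tested.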
